A study of Mus musculus with 3 samples.

Results

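Cytosolic ribosomal proteins are the protein components of the 80S ribosome, and 81 of the 24458 rows of the expression table, 0.331%, are named for their genes. The members were chosen by name alone: symbols of Rpl or Rps followed by digits and at most 1 of the letters a, l, x and y, together with Rplp0, Rplp1, Rplp2 and Rpsa, leaving out pseudogene symbols and the Rps6k kinases. They comprise 43 rows of the large subunit, 30 of the small subunit, 3 of the acidic stalk and 5 of paralogs, and no symbol occurs more than once. The study asked how neuronal activation alters open chromatin and RNA in the dentate gyrus of adult mice. The RNA values examined come from 3 libraries of 1 group, labelled E24, each made from total RNA of the microdissected dentate gyrus of a separate C57BL/6 mouse of 8 weeks. What E24 stands for is not spelled out in the labels, and they give no genotype, treatment or sex. The deposited table is titled with the abbreviations WT and ECT, which the labels do not explain either. With 1 group, no condition was compared, and levels were set against fixed values and against all rows of the table.

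The ribosome joins a small subunit, which reads the messenger RNA, to a large subunit, which forms the peptide bonds and carries the exit tunnel for the new protein. Nearly every ribosomal protein is present once per ribosome, the acidic stalk proteins P1 and P2 being the main exception, so the messages of these genes are usually abundant and of similar level in most tissues. Neurons also hold ribosomes in dendrites, near synapses. Many ribosomal protein genes are short, contain small nucleolar RNAs in their introns, and begin their transcripts with a run of pyrimidines, the 5′ terminal oligopyrimidine or TOP element, which places their translation under the control of growth signalling.

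Values are in RPKM, reads scaled by gene length and by the number of mapped reads, so levels of different genes can be set side by side per length. A limit of the table applies to every value below: values stand displaced by a few rows between libraries, so the value in a row need not belong to the gene that names it. Both of these measures are therefore given for each member, the value in its own row and the highest value within 5 table rows on either side, 11 rows in all. Which of the genes in such a window a value belongs to was not resolved. Libraries totalled 384523, 369261 and 350942 RPKM in replicates 1, 2 and 3. Because the table holds no counts, depth is unknown and intervals for counting error could not be made. The p-values rest on the spread between these 3 libraries, 1 per animal, which limma adjusts with the variance of all rows. In an own row that spread includes the displacement as well as differences between animals. In a neighbourhood the highest values of the 3 libraries may belong to different genes.

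The sequences at the starts of the ribosomal protein genes are shown because a pyrimidine run there is a feature the naming rule did not use. RefSeq starts (GRCm38.p6) were matched by symbol for 60 of the 81 members, as 72 promoter entries. In the 30 bases around the start, 15 on each side, the longest run of C or T had a median of 6 bases in the members and 4 in all 32851 entries. A run of 8 or more was found in 27 of the 72 entries, 37.5%, and in 12% of all entries. Each sequence below is 5′ to 3′ on the strand of the gene with the longest pyrimidine run in capitals. The first 6 were picked from those with a run of 10 or more, and Rpl10 and Rps4x are given as members without one:
Rpl7a (chr2:26910792-26910821, plus strand): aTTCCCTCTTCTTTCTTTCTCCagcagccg
Rpl27a (chr7:109519180-109519209, plus strand): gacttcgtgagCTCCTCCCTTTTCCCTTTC
Rpl35 (chr2:39005117-39005146, minus strand): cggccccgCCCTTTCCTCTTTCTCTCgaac
Rpl15 (chr14:18270972-18271001, minus strand): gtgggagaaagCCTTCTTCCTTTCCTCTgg
Rpl4 (chr9:64173372-64173401, plus strand): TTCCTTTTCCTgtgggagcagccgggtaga
Rps6 (chr4:86857353-86857382, minus strand): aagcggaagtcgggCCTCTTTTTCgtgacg
Rpl10 (chrX:74270801-74270830, plus strand): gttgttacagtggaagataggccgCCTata
Rps4x (chrX:102189377-102189406, minus strand): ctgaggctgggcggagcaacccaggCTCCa
The lengths of these runs are 21, 19, 18, 17, 11, 10, 3 and 4 bases in the order printed. The annotated start follows base 15 of each sequence, and the Rpl4 run ends before it.

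Motifs were counted on both strands of the 300-base promoter entries, 250 bases before to 50 after the start. CTTTCC, which can lie within a pyrimidine run, was in 36 of the 72 member entries, 50%, and in 26.6% of all entries. CCGGAAG, a core bound by ETS factors, was in 26 entries, 36.1%, against 8.86%. AAGATGG, a core of YY1 sites, was in 11, or 15.3%, against 6.34%. TATAAA was in 6, or 8.33%, against 13.6%. The G and C content had a median of 57.8% in member entries and 52.7% in all. These shares describe letters in a window, and no binding was measured.

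Close to most ribosomal protein rows stood a value of 100 RPKM or more. In all 3 libraries the highest value within 5 rows reached 100 RPKM for 75 of the 81 members, whereas 15.7% of all rows of the table had such a neighbourhood. It reached 200 RPKM in all 3 for 58 members, against 6.65% of all rows. The median over the members was 298.3, 257.1 and 254.0 RPKM in replicates 1, 2 and 3, a mean of 269.8 ± 24.7 (SD, n = 3), while the median over all rows was 44.1, 42.2 and 42.7 RPKM. By limma on log2(RPKM + 1), 68 of the 81 lay above 100 RPKM (one-sided, Benjamini-Hochberg adjusted p under 0.05 over all rows), beside 11.1% of all rows. In bulk tissue, the number of cells that make a message and the amount per cell cannot be told apart. The call depended on which library was left out: without replicate 2, or without replicate 3, limma called 0 members and 0 of all rows (72 and 73 members at an unadjusted p under 0.05), while 69 members and 14.4% of all rows were called without replicate 1. The untested count of 75 was 75, 76 and 76 when replicate 1, 2 or 3 was left out.

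**Figure D1:**
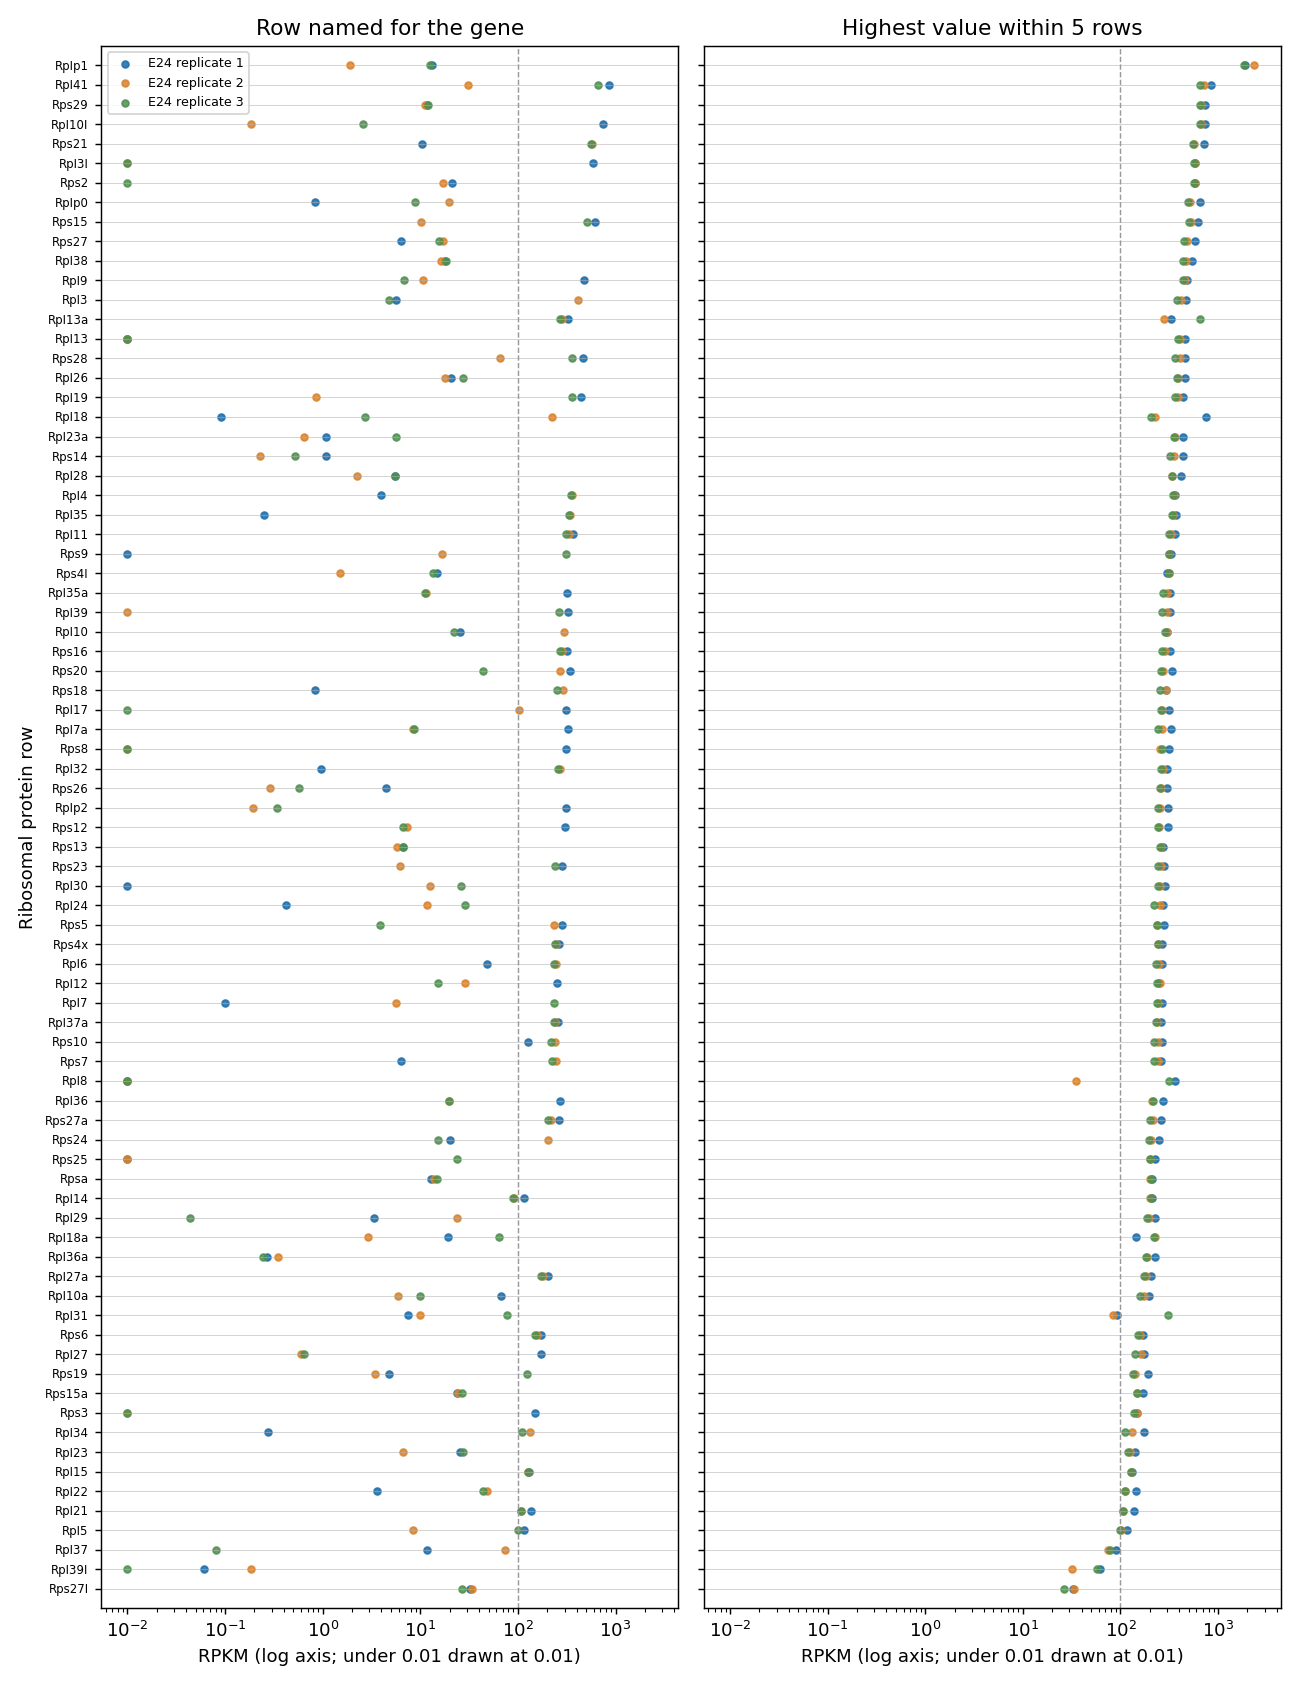
RPKM (log axis) of 79 ribosomal protein rows, in the row named for the gene (left) and as the highest value within 5 rows (right), with 1 point per E24 library and a dashed line at 100 RPKM; values under 0.01, listed zeros included, are drawn at 0.01. On the left the libraries of a row scatter widely, and on the right 73 of the 79 rows drawn have all 3 points at 100 RPKM or more.

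Between the quartiles the neighbourhood values of the members differed less than those of all rows. Their full range was 32.6 to 1870, 32.1 to 2350 and 26.6 to 1840 RPKM in replicates 1, 2 and 3. Between the lower and the upper quartile of the members the highest value within 5 rows ran from 224.2 to 412.5 RPKM in replicate 1, from 199.1 to 344.7 in replicate 2 and from 202.8 to 346.8 in replicate 3. The upper quartile was thus 1.84, 1.73 and 1.71 times the lower one. Over all rows of the table this ratio was 5.01, 4.77 and 4.69. Small subunit rows had medians of 295.8, 259.6 and 254.9 RPKM, and large subunit rows 285.2, 253.9 and 239.6 RPKM. The medians of both subunits thus stood at nearly the same level in each library. Their lower ends differed more, with lower quartiles in replicate 1 of 259.6 RPKM for the small and 199.9 RPKM for the large subunit. By limma 29 of 30 small and 33 of 43 large subunit rows had a neighbourhood above 100 RPKM, beside 11.1% of all rows. The difference between the subunits was not tested.

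In their own rows the same members looked far more uneven. The own row reached 100 RPKM in 35, 27 and 28 members in replicates 1, 2 and 3, against 2.62%, 2.42% and 2.36% of all rows. It did so in all 3 libraries for 11 members (0.397% of all rows), in 1 or 2 libraries for 39 (5% of all rows) and in none for 31 (94.6% of all rows). Own rows at 1 RPKM or more in all 3 libraries numbered 50, against 32.4% of all rows. Under 1 RPKM stood 16, 17 and 15 own rows, against 49.8%, 50.7% and 50.5% of all rows. The median own value was 23.6, 17.0 and 23.5 RPKM, and over all rows 1.02, 0.911 and 0.930 RPKM. By limma, 25 of the 81 own rows lay above 1 RPKM (one-sided, adjusted p under 0.05), beside 18.3% of all rows. The coefficient of variation of an own row over the 3 libraries had a median of 86.2%. For the 67 members whose highest neighbouring values reached 100 RPKM and lay within a natural-log difference of 0.3 of each other, that of the neighbouring value had a median of 9.03%; this choice of members by agreement lowers the figure.

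High values were concentrated at the named row and its nearest neighbours. At the row itself 43.2%, 33.3% and 34.6% of members had 100 RPKM or more. One row away the share was 13.6%, 19.1% and 17.9%, and at 2 rows it was 11.7%, 6.17% and 8.64%. Between 3 and 5 rows away it had dropped to 5.35%, 4.94% and 4.53%, and between 21 and 30 rows to 3.02%, 3.02% and 3.27%, near the level of the whole table.

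**Figure D2:**
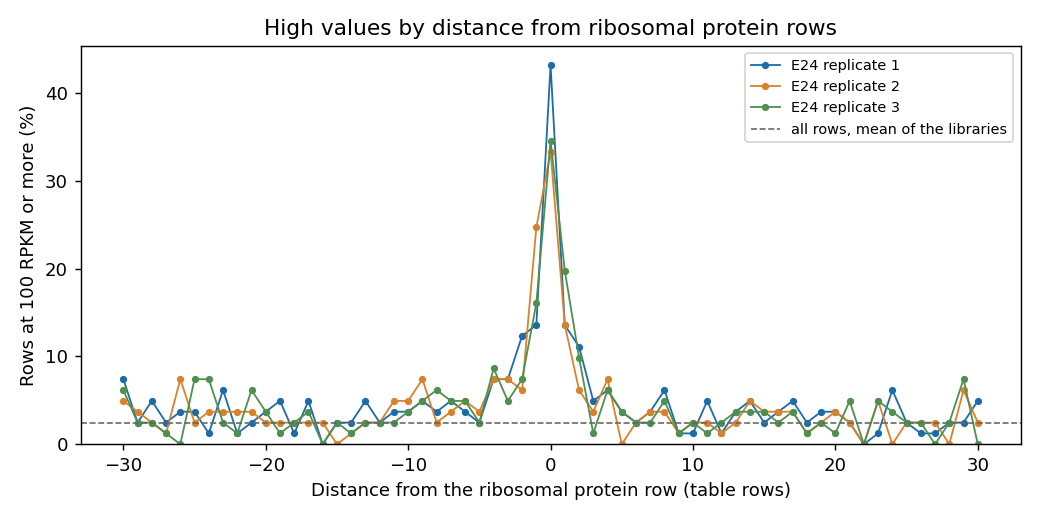
Share of rows at 100 RPKM or more (%) by distance from the 81 ribosomal protein rows in table rows, 1 line per E24 library, with the share over all rows, averaged over the libraries, dashed. The peak of 33.3% to 43.2% at distance 0 falls to 4.53% to 5.35% over the distances from 3 to 5 rows on both sides.

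The highest value within 5 rows stood in the member's own row for 33, 27 and 28 members in replicates 1, 2 and 3, against 8.48%, 8.42% and 8.5% of all rows. It stood 1 row away for 20, 27 and 27 members, and 5 rows away for 3, 1 and 4. In all 3 libraries it stood in the own row for 10 members (1.48% of all rows), and in no library for 32 (81.5% of all rows). Where it stood elsewhere, the own row had a median of 5.62, 6.93 and 8.83 RPKM, while the value nearby had a median of 295.7, 261.4 and 256.8 RPKM. Where it stood in place, the median was 310.4, 242.6 and 241.1 RPKM. Values found in place and values found nearby were thus of similar size. Replicates 2 and 3 had the highest value at the same offset for 44 of the 75 members that reached 100 RPKM, against 50.6% of all such rows. Replicates 1 and 2 did so for 22 (31.2% of all such rows) and replicates 1 and 3 for 27 (36.2%).

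**Figure D3:**
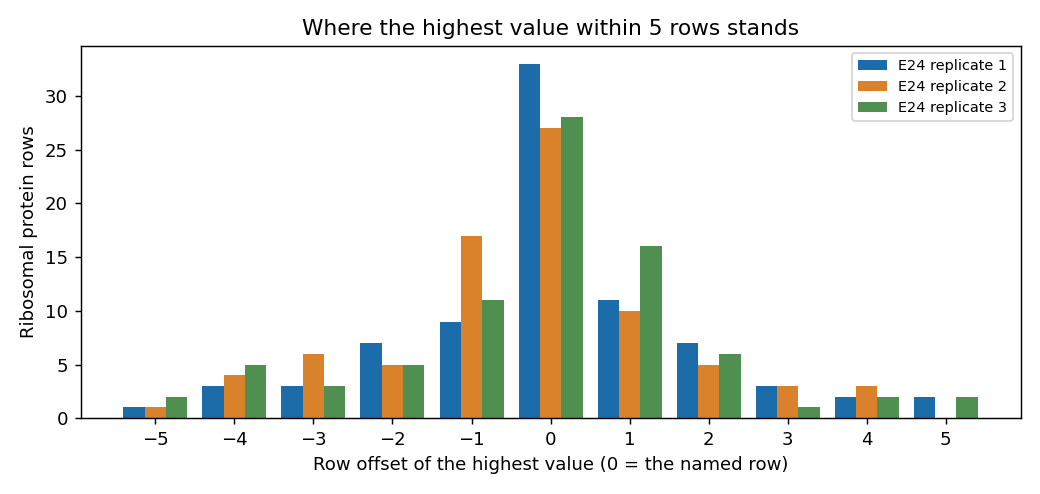
Number of ribosomal protein rows by the table-row offset of the highest value within 5 rows, with 1 bar per E24 library and 0 marking the row named for the gene. The bar at 0 is the tallest in each library, with 33, 27 and 28 rows.

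The 10 members just counted had their highest neighbouring value in their own row in every library. For these rows the 2 measures therefore give the same values. Whether these values belong to the gene that names the row was not resolved here either. Rpl11, on chromosome 4 from 135605862 to 135609286 (mm9, as the table gives it), encodes a large subunit protein that also binds Mdm2. Its row held 364.5, 330.3 and 311.0 RPKM, a mean of 335.3 ± 27.1 (SD, n = 3). On the scale of log2(RPKM + 1) this was 1.73 ± 0.07 (SE) above 100 RPKM, at an adjusted p of 0.00352 by limma. Rps16, at chromosome 7 from 29135707 to 29137717, encodes a protein of the small subunit near the decoding site. Its row held 319.1, 282.8 and 268.3 RPKM. Rps4x, the X-linked gene for small subunit protein eS4 (chromosome X, 99380281 to 99383710), had 266.2, 242.6 and 241.0 RPKM. For Rpl37a the row held 257.5, 238.0 and 232.2 RPKM. Rps27a encodes a small subunit protein made as a fusion with ubiquitin, and its row had 261.9, 217.1 and 202.8 RPKM. In each of these 5 rows replicate 1 was the highest library and no library departed from the level of the others by as much as 1.5-fold.

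Rpl27a, Rps6, Rpl15 and Rpl21 were steady at lower levels. Rpl27a held 204.2, 180.8 and 174.1 RPKM. Rps6, a small subunit protein whose phosphorylation by S6 kinase is widely used as a marker of neuronal activity, held 170.7, 158.5 and 149.9 RPKM (chromosome 4, 86500002 to 86503271). Rpl15, whose long pyrimidine run at the start is shown above, had the closest agreement of these rows, with 130.3, 128.1 and 127.0 RPKM. Rpl21 stood at 136.3, 106.8 and 106.5 RPKM, and did not pass against 100 RPKM (limma, adjusted p = 0.476). The last of the 10, Rps27l, is a paralog and is described with the paralogs. An eleventh row, Rpl13a, had 329.2, 281.4 and 270.8 RPKM in its own row, but in replicate 3 a value of 648.5 RPKM stood in the next row, named for the small nucleolar RNA Snord33.

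In other members the highest value stood in different rows in different libraries, and whether it belongs to the same gene was not resolved. For Rpl41, which encodes the smallest ribosomal protein and lies on chromosome 10 from 127985165 to 127986224, the own row held 855.3, 30.6 and 658.5 RPKM. Replicate 2 had 711.1 RPKM 1 row before it. With that value taken for replicate 2, the 3 libraries differed by less than 1.5-fold. Their mean was 741.7 ± 101.9 RPKM (SD, n = 3), the highest neighbourhood of the large subunit. The same was seen at Rps15, with 619.0, 10.1 and 504.5 RPKM in its row and 526.9 RPKM 1 row before it in replicate 2. At Rpl19 the own values were 438.3, 0.860 and 360.0 RPKM, and replicate 2 had 391.6 RPKM 1 row before. Rps28 had 462.7, 65.8 and 361.9 RPKM, with 404.8 RPKM 1 row before in replicate 2. In these 4 members replicates 1 and 3 were high in the own row and replicate 2 was high in the row before.

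Elsewhere replicate 1 was the library whose highest value stood outside the own row. Rps21 held 10.3, 573.4 and 555.1 RPKM in its own row, and 716.9 RPKM stood 2 rows before it in replicate 1. At Rpl35 the own row held 0.252, 344.7 and 333.9 RPKM, with 374.1 RPKM 2 rows before in replicate 1. Rpl4, a large subunit protein that lines the exit tunnel, had 3.95, 355.1 and 346.8 RPKM, with 366.3 RPKM in the next row in replicate 1. The opposite arrangement occurred at Rpl9, whose row held 477.2, 10.6 and 6.86 RPKM while 457.2 and 436.7 RPKM stood 2 rows on in replicates 2 and 3. In Rps20 it was replicate 3 that differed, with 339.1, 272.1 and 43.4 RPKM in the row and 258.5 RPKM in the next row. Rpl12 had 248.7, 28.8 and 15.3 RPKM, with 253.9 and 239.2 RPKM in the next row of replicates 2 and 3. In each of these 6 members the highest values of the 3 libraries lay within 1.5-fold of each other. Rpl4, Rpl9 and Rpl12 were named for values that agree between libraries, so for them this follows from the choice. Of all rows with a highest value of 100 RPKM or more in all 3 libraries, 75.8% agreed within a natural-log difference of 0.3.

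Rows named for some core ribosomal proteins were near 0 beside a high neighbour. The Rpl8 and Rpl13 rows were listed at 0 in all 3 libraries, 2 of 81 members against 18.8% of all rows. One row before the Rpl13 row, replicates 1, 2 and 3 had 461.5, 409.1 and 385.1 RPKM, in the row named Spg7. Around the Rpl8 row the highest values within 5 rows were 365.5, 34.7 and 316.8 RPKM. In replicate 2 a value of 330.8 RPKM stood 6 rows before it, just outside the window. The own row of Rps26 held 4.46, 0.288 and 0.570 RPKM. Its highest neighbours, 298.3, 259.6 and 256.8 RPKM, stood at 3 different offsets. Rpl28 had 5.57, 2.26 and 5.46 RPKM, with 412.5 RPKM 1 row on in replicate 1, 337.2 RPKM 4 rows on in replicate 2 and 337.6 RPKM 5 rows on in replicate 3. Rpl23a had 1.08, 0.639 and 5.61 RPKM, with 437.7, 360.3 and 356.3 RPKM in the next row of each library, named for the small nucleolar RNA Snord42a whose locus lies inside Rpl23a. Rps26, Rpl28 and Rpl23a were named for a large ratio of the highest neighbouring value to the own value. For them a low own row beside a high neighbour follows from that choice. Near Rpl8 no such high value stood within 5 rows in replicate 2.

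The stalk proteins bind the elongation factors at the large subunit. Rplp0, the base of the stalk, had 0.826, 19.8 and 8.83 RPKM in its own row. Values of 646.1, 519.0 and 495.4 RPKM stood 4 rows before it in every library, in the row named Cox6a1, a cytochrome oxidase subunit gene, and which of the genes nearby they belong to was not resolved. Nearer to the Rplp0 row stood 216.1 RPKM 2 rows on in replicate 1, 234.4 RPKM 1 row before in replicate 2 and 212.1 RPKM 2 rows on in replicate 3. These values lay within 1.5-fold of each other, and the row 2 rows on is named for a locus of 60 bp, Mir7030. Rplp2, one of the paired proteins P1 and P2, had 310.4, 0.195 and 0.338 RPKM in its row, with 257.1 RPKM 3 rows before in replicate 2 and 239.7 RPKM 4 rows before in replicate 3. The Rplp1 row held 13.3, 1.92 and 12.6 RPKM. Its neighbourhood held the highest values of any member, 1870, 2350 and 1840 RPKM, which stood 3 rows on in replicates 1 and 2, in a row named for the 77 bp locus Mir5133, and 4 rows on in replicate 3. A second set of high values, 1183, 989.7 and 957.9 RPKM, stood 1 row after the Rplp1 row in replicate 1 and 1 row before it in replicates 2 and 3. By limma 3 of the 3 stalk rows had a neighbourhood above 100 RPKM, beside 11.1% of all rows. An own row above 1 RPKM was called for 0 (1 at an unadjusted p under 0.05), beside 18.3% of all rows.

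Paralog rows fell into those that share a window with a core member and those that do not. Rpl3l, the muscle form of Rpl3, held 582.1, 0 and 0 RPKM, and 578.9 and 564.1 RPKM stood in the next row of replicates 2 and 3. The row of the core small subunit gene Rps2 lies 4 rows on, with 20.9, 17.1 and 0 RPKM, and has the same values as its highest neighbours. Rpl10l, the testis form of Rpl10, had 741.7, 0.186 and 2.56 RPKM, with 662.2 and 651.5 RPKM 4 rows on in replicates 2 and 3. Rps29, a core member 2 rows from Rpl10l, had 11.6, 11.1 and 11.99 RPKM in its own row and shares those highest values. Rps4l had 14.99, 1.52 and 13.3 RPKM, and its highest neighbours in replicates 2 and 3, 315.9 and 313.5 RPKM, are also those of Rps9, 2 rows away. The remaining paralogs have no other member within 10 rows. Rpl39l, a testis form of Rpl39, had 0.0610, 0.186 and 0 RPKM in its row and 61.3, 32.1 and 56.9 RPKM within 5 rows. Rps27l, a p53-responsive paralog of Rps27, had 32.6, 33.6 and 26.6 RPKM in its own row, a mean of 31.0 ± 3.81 (SD, n = 3), which was also the highest value within 5 rows. Of the 5 paralogs, the 3 that reached 100 RPKM nearby thus share their highest value with a core member in at least 1 library, and the 2 without a core member nearby did not reach it.

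By the highest value within 5 rows, core counterparts stood above their paralog at Rpl39 and Rps27, and below it at Rpl3, Rpl10 and Rps4x. This order is one of neighbourhoods, and which genes the values belong to was not resolved. Rpl3 and Rpl10 had lower neighbourhoods than the Rpl3l and Rpl10l rows, whose highest values are shared with other core members, while Rpl39 and Rps27 had higher ones. Rps4x had 266.2, 242.6 and 241.0 RPKM within 5 rows, below the 302.4, 315.9 and 313.5 RPKM of Rps4l. In replicates 2 and 3 those Rps4l values are shared with Rps9. Rpl3 had 474.1, 415.5 and 378.9 RPKM within 5 rows (5.68, 415.5 and 4.78 RPKM in its own row). Rpl10 had 298.7, 298.0 and 284.7 RPKM within 5 rows, and 25.2, 298.0 and 21.9 RPKM in its own. Around Rpl39 the highest values were 323.0, 298.9 and 266.1 RPKM, with 323.0, 0 and 266.1 RPKM in the row itself. Rps27 had 579.3, 483.3 and 448.0 RPKM nearby, while its own row held 6.29, 17.0 and 15.5 RPKM. The highest values near Rps27 stood in the rows named Rps27rt, Jtb and Creb3l4 in replicates 1, 2 and 3. They were more than 10 times those near Rps27l in every library. In the own rows the order was reversed, with 32.6, 33.6 and 26.6 RPKM at Rps27l. Neither difference was tested.

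Shared windows affected 10 members in all, as 5 pairs with the same highest value in at least 1 library. Besides the 3 pairs above, Rpsa, the laminin receptor and small subunit protein, had 12.9, 13.8 and 14.7 RPKM in its own row. Its highest neighbours, 208.2, 202.1 and 206.8 RPKM, are also those of Rpl14, whose own row held 114.7, 92.2 and 89.7 RPKM. Rps13 illustrates a neighbour outside the family: its row held 6.72, 5.81 and 6.59 RPKM, and the highest values nearby, 272.5, 259.7 and 255.8 RPKM, stood in replicates 2 and 3 in the row named for the initiation factor Eif4g2. Counted once each, the highest values occupied 77, 76 and 76 rows in the 3 libraries.

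Only 6 members did not reach 100 RPKM within 5 rows in every library. Besides Rpl8, Rpl39l and Rps27l these were Rpl37, with 89.99, 74.0 and 78.1 RPKM, Rpl5 with 115.3, 101.3 and 99.7 RPKM, and Rpl31 with 91.8, 83.0 and 307.7 RPKM. Rpl5, a large subunit protein that carries the 5S RNA, missed the level in replicate 3 alone. In Rpl31 the value of replicate 3 stood 2 rows before, in the row of a small nucleolar RNA, Snord89.

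Short loci lie near many members. Rows whose locus is shorter than 250 bp, for which RPKM rises steeply with each read, stood within 10 rows of 58 of the 81 members, against 55.1% of all rows. In 21 members a small nucleolar RNA row lies inside the member's own locus, 30 such rows in all, 4 of them inside Rpl13a. Among the 23 members with no short locus within 10 rows, 21 reached 100 RPKM in all 3 libraries, beside 11.8% of the 10990 such rows of the table. With limma 19 of the 23 passed, beside 8.59% of those rows. When rows under 250 bp supplied no value, the count of members at 100 RPKM or more in all libraries was 66 of 81, beside 14.3% of all rows.

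Replicate 1 had the highest values around nearly all members. Of the 75 members at 100 RPKM or more in all libraries, its highest neighbouring value was the largest for 68, and over all 3831 such rows for 72.4%. The median ratio of replicate 1 to replicate 2 was 1.13 for the members and 1.11 for all such rows, and that of replicate 1 to replicate 3 was 1.18 and 1.16. Replicate 2 over replicate 3 gave 1.05 and 1.03. Each median ratio of the ribosomal rows was slightly above that of all high rows, and the difference was not tested. The 3 highest values lay within a natural-log difference of 0.3 for 67 of the 75, against 75.8% of all such rows.

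**Figure D4:**
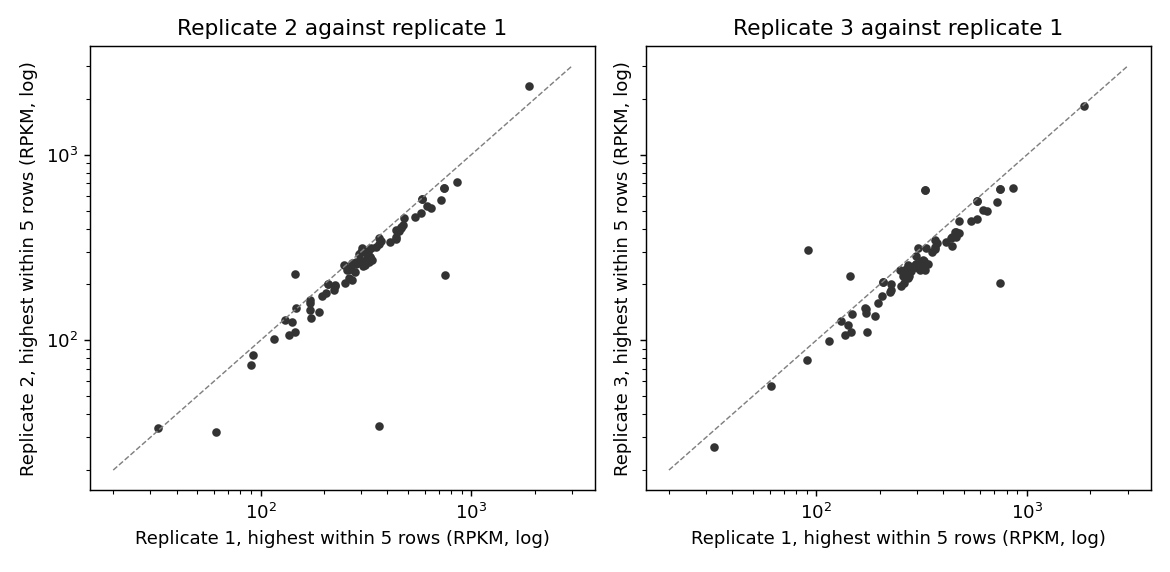
Highest RPKM within 5 rows of each of the 81 ribosomal protein rows in replicates 2 and 3 (vertical, log axis) against replicate 1 (horizontal, log axis), with the line of equality dashed. Most points lie a little below the line, at median ratios of replicate 1 to replicates 2 and 3 of 1.13 and 1.18 for the 75 rows at 100 RPKM or more in all libraries.

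A stricter measure asked for 1 value per library within 5 rows, the 3 agreeing within a natural-log difference of 0.1. Such a matched value of 100 RPKM or more was found for 19 of the 81 members, against 4.58% of all rows. The highest were 575.0 RPKM at Rpl3l and Rps2, 456.7 RPKM at Rpl9 and 356.0 RPKM at Rpl4. At a tolerance of 0.3, chosen after the data were seen, it was found for 74 members, against 14.4% of all rows. Without replicate 1, 2 or 3 the number at 0.1 was 69, 22 or 36, and the share of all rows was 17.7%, 6.11% or 7.47%. The rise without replicate 1 was thus seen over the whole table as well.

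Other parts of the translation machinery were described by the same counts, to be read against the 18.3% of all rows with an own value above 1 RPKM and the 11.1% with a neighbourhood above 100 RPKM. Mitochondrial ribosomal proteins, which make up the separate ribosome of that organelle, had 38 of 74 own rows above 1 RPKM and 9 of 74 neighbourhoods above 100 RPKM by limma. Their neighbourhood medians were 57.3, 55.1 and 52.5 RPKM. Elongation factor rows had 4 of 8 own rows above 1 RPKM and 3 of 8 neighbourhoods above 100 RPKM. Among them Eef2, which moves the ribosome along the message, held 349.4, 354.3 and 350.01 RPKM in its own row. Initiation factor rows had 20 of 55 and 15 of 55, and the row of Eif5, which acts in start codon choice, went from 548.9 RPKM in replicate 1 to 69.8 and 69.0 RPKM in the others. Its neighbourhood reached 548.9, 467.3 and 455.8 RPKM. For ribosome assembly factors the counts were 10 of 18 and 0 of 18 (1 at an unadjusted p under 0.05). Proteins that sit on the ribosome or are fused to ubiquitin, but fall outside the naming rule, had 4 of 7 and 5 of 7. In this list Fau, the source of small subunit protein eS30, had 404.7, 22.8 and 18.6 RPKM in its row and 404.7, 360.9 and 339.8 RPKM within 5 rows. No difference between these lists was tested.

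The tissue label was looked at through marker rows by the same measures. Their counts are to be read against 18.3% of all rows for own values and 11.1% for neighbourhoods. Of 5 granule neuron markers, 0 had an own row above 1 RPKM by limma (1 at an unadjusted p under 0.05) and 2 had a neighbourhood above 100 RPKM. These were Dock10, with 333.3, 248.2 and 234.4 RPKM within 5 rows, and C1ql2 with 203.6, 243.9 and 222.5 RPKM. Prox1, the defining factor of granule neurons, had 39.5, 39.3 and 40.5 RPKM within 5 rows, Calb1 84.9, 91.3 and 89.8 RPKM, and Dsp 46.6, 40.1 and 38.9 RPKM. Markers of other cells were present too. Microglia markers had 3 of 3 own rows above 1 RPKM and 1 of 3 neighbourhoods above 100 RPKM, that of Cx3cr1, which shares its highest values with Rpsa and Rpl14. Interneuron markers and CA pyramidal markers each had 1 of 3 own rows called, and astrocyte, oligodendrocyte and choroid plexus markers 0 (1 in each at an unadjusted p under 0.05). No neighbourhood of these last 5 lists passed against 100 RPKM (1, of an interneuron marker, at an unadjusted p under 0.05). The astrocyte marker Gfap had 72.5, 198.9 and 186.5 RPKM within 5 rows, and the choroid plexus marker Ttr 55.3, 30.9 and 29.3 RPKM. The values near Ttr were thus of the size of those near Prox1. In replicates 1 and 2 the same values were the highest near the astrocyte marker Aqp4, and which gene they belong to was not resolved. The Ttr row itself held 55.3, 1.15 and 0.396 RPKM. How far other cell types contribute to the ribosomal values was not tested.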

How the data were processed

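RNA was sequenced from the dentate gyrus of 3 mice, 1 library each. The deposited values are RPKM. The submitters' processing notes name TopHat2, Cufflinks and mm9, with versions, annotation and filters not given in the sources used here. A further 9 value columns match no listed sample and were not used. Members, lists and tests were chosen with earlier results of these data known. Values were taken per row with no filter and no rescaling. For every row the highest RPKM within 5 rows was taken in each library. Own rows were tested against 1 RPKM and neighbourhoods against 100 RPKM with limma 3.58.1 in R 4.3.3 on log2(RPKM + 1), intercept-only, variance trend, one-sided, Benjamini-Hochberg over 24458 rows. Neighbouring windows overlap, so rows are not independent. The background is all rows, in place of random ones. A matched value is the highest geometric mean of 3 values, 1 per library, within 5 rows. The scripts were tested on simulated data. Named rows were the 15 highest by own mean and by matched value, rows listed at 0 in every library, rows with a neighbourhood under 20 RPKM (none met this), extremes of neighbourhood over own value, stalk, paralog and window-sharing rows, and at most 6 per list; other rows named were chosen after their values were seen. Results for single rows are in some cases not reported here. Coordinates are those of the table. Promoter sequences are RefSeq's (GRCm38.p6).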

Additional observations from a re-analysis of the deposited data

How the results depend on the processing

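Settings were fixed with earlier results known, except the tolerance of 0.3 and the untested count of members at 100 RPKM in every library, added after seeing the data. Of 55 alternatives for the main counts and medians, 43 changed the count by less than 1.5 times, or the median by less than 1 SD, and the other 12 changed it by more. Neighbourhoods above a level of 200 RPKM by limma numbered 24 (2.88% of all rows), against 68 above 100 RPKM. With a library left out that number ran from 0 to 69. Among the 23 members with no locus under 250 bp nearby it was 19, the untested count was 21 and the matched count 3. Fewer members enter these counts. For matched values the share was lower as well, at 3 of 23 against 19 of 81. Matched values numbered 10 with a window of 2 rows (1.41% of all rows), 9 within 0.05 (1.84%), 51 within 0.2 (10.1%) and 74 within 0.3, against 19, and 22 to 69 with a library left out. Apart from settings that change the level, window, tolerance, members or libraries, the cause was not tested. The number of own rows above 1 RPKM ran from 20 to 35, and the neighbourhood median from 251.6 to 278.7 RPKM. No paired analysis was possible because a single group was labelled. Without counts, the limits set by depth remain unmeasured.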
